A study of Mus musculus with 25 samples.

Results

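The genes described here build the N-linked glycan, attach it to proteins and trim it, and their RNA was measured by RNA-seq in mouse liver. The list holds 40 genes named by their place in the pathway: supply of the lipid dolichol, dolichol-linked sugar donors, assembly of the lipid-linked oligosaccharide, oligosaccharyltransferase and trimming. Of these, 39 were matched by symbol among the 56980 genes of the deposited count table, and Tusc3 was not analysed here. All 39 passed the filter on low counts in every fit, with 84 counts (Dpm1) to 17850 counts (Man1a) in a library. The mice were male C57BL/6J, aged 8 weeks when the 12 weeks of diet began. Mice on normal diet ate a standard rodent chow and drank water. FAT-MASH models fatty liver with inflammation and fibrosis through 3 insults. Its chow contained 41% sucrose, 21.1% fat and 1.25% cholesterol, its drinking water held fructose at 23.1 g/L with glucose at 18.9 g/L, and carbon tetrachloride, a liver toxin, was injected intraperitoneally each week. Mannose, a hexose, was added to the drinking water at 5% or 20% (w/v) either throughout the 12 weeks, called prevention, or during only the last 6, called therapy. In the first labelled batch there are 3 libraries each of normal diet, FAT-MASH without mannose, 5% prevention, 20% prevention, 5% therapy and 20% therapy, and the mannose groups all received the FAT-MASH regimen. The second holds normal diet without mannose (2 libraries), with 5% mannose (2) and with 20% mannose (3), mannose being given for 12 weeks. Since diet, sugar water and carbon tetrachloride always came together, their effects cannot be told apart.

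N-glycosylation starts on the cytosolic face of the endoplasmic reticulum, where sugars are added one by one to dolichol pyrophosphate. The oligosaccharide is flipped into the lumen, lengthened with mannose and glucose taken from dolichol-linked donors, and moved as a block to asparagine residues of new proteins by oligosaccharyltransferase. Glucosidases and mannosidases then trim it in the endoplasmic reticulum and the Golgi, and the glucose residues left on the way serve as a folding signal read by the lectin chaperones. Hepatocytes secrete most plasma glycoproteins, so liver depends heavily on the pathway. Mannose can enter it after phosphorylation and conversion to GDP-mannose.

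Libraries of the first batch held 31298299 to 56010646 counts and those of the second 35971380 to 49752882. Hepatocyte markers were abundant in every library, with 62600 to 114000 summed CPM (counts scaled to library size) over 8 genes. Of 5 markers of other tissues, Prss1 and Ins2 had 0 counts in all 18 first-batch libraries and Myh6 in 16. Cela1, named for pancreatic elastase, had 423 to 1921 counts and fell on the regimen (log2 fold change -1.84 ± 0.19, adjusted p = 1.94e-06), so the sum of the 5 was 40.3 to 67.3 CPM on normal diet and 12.9 to 16.9 CPM in FAT-MASH. Its part in the results was not tested. Values below are CPM scaled by the trimmed mean of M values (TMM) within a batch, and levels of different genes are compared only as CPM per kilobase of exon. Adjusted p-values come from the quasi-likelihood test of edgeR, adjusted by Benjamini-Hochberg over all genes tested, and a gene was called at an adjusted p under 0.05. Liver is a bulk sample here, so fewer cells of a type and less RNA per cell cannot be told apart.

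In normal-diet liver of the first batch, the subunits of oligosaccharyltransferase had the highest median level per kilobase of exon among the classes of the list. Their median level was 27.4 CPM per kilobase over 8 genes, against 19.4 for the 9 trimming genes, 12.5 for the 5 donor genes, 8.73 for the 5 dolichol genes, 7.29 for the 6 cytosolic assembly genes and 6.08 for the 6 lumenal ones. Ddost, a noncatalytic subunit of oligosaccharyltransferase, stood at 63.0 ± 3.30 CPM per kilobase (SD, n = 3). It was followed by the ribophorins Rpn2 (44.7 ± 2.49) and Rpn1 (44.0 ± 3.90) and by Ganab (43.8 ± 2.25), the catalytic subunit of glucosidase II, which differed from each other by less than their spread. At the low end were Alg6 (1.28 ± 0.0957), which adds the innermost glucose, Alg13 (1.25 ± 0.0545), a subunit of the enzyme adding the outer N-acetylglucosamine, and Dpm1 (0.788 ± 0.320), the catalytic subunit of dolichol-phosphate mannose synthase. Per kilobase, the catalytic subunits of oligosaccharyltransferase stood at 28.9 ± 2.14 (Stt3b) and 12.3 ± 0.620 (Stt3a). Their raw counts were closer, with a Stt3a to Stt3b ratio of 0.814 to 0.983. The divisor holds every annotated exon base of a gene, 8948 for Stt3a and 4221 for Stt3b. It is also large for Alg6 (8544), Alg13 (6850) and Dpm1 (7489). Its part in the order of genes and classes was not tested. Read assignment limits some of these levels. Strand was not used, and 17.6% of the exon bases of Alg1, 12.9% of Alg9 and 8.7% of Alg3 overlap a gene on the opposite strand. For Dpm1, 12.0% (895 of 7489 bases) overlap a gene on the same strand, which strand could not resolve. How far this overlap lowers the counts, level and rank of Dpm1 was not tested.

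**Figure D1:**
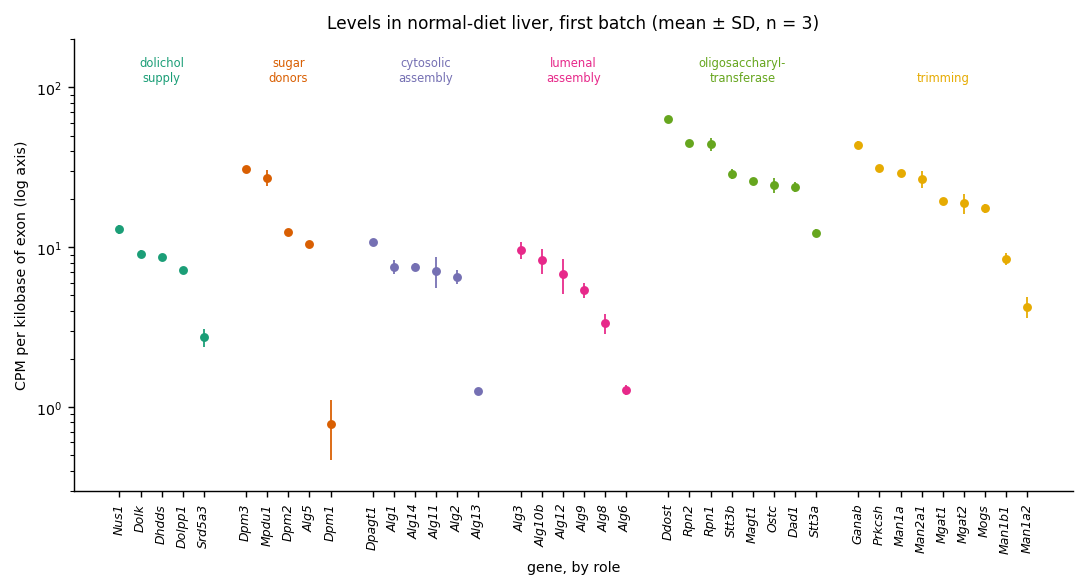
Levels of the 39 measured genes in normal-diet liver of the first batch, as CPM per kilobase of exon on a log axis, by role (points are means, bars SD, n = 3). Oligosaccharyltransferase genes lie between 12.3 and 63.0 and lumenal assembly genes between 1.28 and 9.61.

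On the FAT-MASH regimen, against normal diet, 3 of the 8 oligosaccharyltransferase genes fell (Rpn1, Ddost and Magt1), the catalytic and regulatory subunits of glucosidase II both fell (Ganab and Prkcsh), and the Golgi mannosidase gene Man1a2 rose. None of the 22 genes of dolichol supply, donors and lipid-linked assembly passed the test. In all, 1 of the 39 genes rose and 5 fell, which is 15.4% of the list, while 13.7% of the 19571 genes tested were called (7.81% higher and 5.92% lower), so the share of the list was near that of all genes. With RLE size factors 0 rose and 5 fell, and with library totals alone 2 rose and 5 fell. The median log2 fold change was -0.08 over the list and 0.03 over all genes tested.

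Rpn1, a ribophorin that helps present substrate proteins to the catalytic subunit (chromosome 6, 88061464 to 88082286, + strand, GRCm39), had 184, 193 and 218 CPM in the normal-diet libraries and 103, 94.3 and 92.1 CPM in the FAT-MASH libraries. All 3 FAT-MASH libraries lay far below all 3 normal-diet libraries, and the log2 fold change was -1.04 ± 0.12 (SE, adjusted p = 9.63e-06). Ddost had 127, 134 and 140.0 CPM on normal diet and 95.9, 105 and 104 CPM on the regimen. The groups did not overlap, and Ddost fell by 0.40 ± 0.10 on the log2 scale (adjusted p = 0.0101; 0.0518 without FAT-MASH replicate 1). Magt1, a thioredoxin-like subunit of the STT3B form, had 117, 120.0 and 127 CPM on normal diet and 99.2, 82.4 and 94.3 CPM on the regimen. Its groups were also separate, and it fell by 0.40 ± 0.10 (adjusted p = 0.0140), which no longer passed without FAT-MASH replicate 2 (0.0670) or without normal diet replicate 3 (0.0505). The other ribophorin, Rpn2, had 196, 210.0 and 188 CPM against 175, 171 and 175 CPM and did not pass the test.

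The promoters of Rpn1, Ddost and Stt3b are printed as examples of called oligosaccharyltransferase genes whose windows hold both parts of the motif searched, chosen with the matches known, and that of Alg12 because it is the one gene of the list with a full match. That motif is the endoplasmic reticulum stress element, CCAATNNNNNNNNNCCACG, which the factors of the unfolded protein response bind, and its parts CCAAT and CCACG, each on both strands. Sequences are RefSeq's windows from 250 bases before to 50 bases after the gene start (GRCm38.p6, a different build from that of the count table), 5′ to 3′ on the gene's strand, with the parts of the motif in capitals. They lie at chr6:88084223-88084522 (+ strand), chr4:138304488-138304787 (+ strand), chr9:115310419-115310718 (- strand) and chr15:88819269-88819568 (- strand).
Rpn1: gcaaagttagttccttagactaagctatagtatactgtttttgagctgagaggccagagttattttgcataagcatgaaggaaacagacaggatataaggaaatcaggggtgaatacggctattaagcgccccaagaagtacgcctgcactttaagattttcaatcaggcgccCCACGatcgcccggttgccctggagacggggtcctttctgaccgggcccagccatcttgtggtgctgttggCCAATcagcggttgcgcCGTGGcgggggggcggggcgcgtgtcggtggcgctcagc
Ddost: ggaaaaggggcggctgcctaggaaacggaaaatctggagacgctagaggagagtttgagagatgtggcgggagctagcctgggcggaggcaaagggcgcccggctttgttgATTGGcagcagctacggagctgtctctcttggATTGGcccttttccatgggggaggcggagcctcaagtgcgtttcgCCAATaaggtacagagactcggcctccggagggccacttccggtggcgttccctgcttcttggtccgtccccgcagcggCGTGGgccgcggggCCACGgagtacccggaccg
Stt3b: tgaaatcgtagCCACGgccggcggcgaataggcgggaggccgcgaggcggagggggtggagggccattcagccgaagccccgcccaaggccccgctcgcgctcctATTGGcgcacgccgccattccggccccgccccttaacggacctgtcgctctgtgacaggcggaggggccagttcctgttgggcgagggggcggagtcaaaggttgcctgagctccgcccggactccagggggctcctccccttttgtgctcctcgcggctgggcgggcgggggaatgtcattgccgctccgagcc
Alg12: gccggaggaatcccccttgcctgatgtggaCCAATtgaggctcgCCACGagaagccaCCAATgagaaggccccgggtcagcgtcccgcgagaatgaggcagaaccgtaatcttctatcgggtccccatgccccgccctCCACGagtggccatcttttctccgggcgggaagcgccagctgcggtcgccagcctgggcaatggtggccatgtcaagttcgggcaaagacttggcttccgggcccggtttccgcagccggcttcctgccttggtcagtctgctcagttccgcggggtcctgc
Of the 39 measured genes, 34 had a window in the table, some with more than 1, giving 37 windows. CCAAT was found in 51.4% of these and in 37.4% of all 32851 windows, and CCACG in 48.6% and 32.8%. The windows of the list are richer in G and C (median 62.3% against 52.7%), which also moves how often such letters occur. The full motif was found in 1 window of the list and in 0.119% of all windows. Among the other subunits, Stt3a and Dad1 held both parts, Rpn2 and Magt1 held CCAAT only, and Ostc had no entry. A match of letters is a description of the window, and no binding was measured.

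Because Rpn1 and Rpn2 are partner subunits, their raw counts were also set against each other within each library, a ratio that needs no scaling between libraries. The Rpn1 to Rpn2 count ratio was 0.941, 0.919 and 1.16 on normal diet and 0.591, 0.553 and 0.526 in FAT-MASH. It was 0.632 to 0.748 in 5% prevention, 0.701 to 0.828 in 20% prevention, 0.620 to 0.837 in 5% therapy and 0.710 to 0.820 in 20% therapy. In the first batch every mannose library thus lay above the FAT-MASH libraries and below the normal-diet libraries. In the second batch the ratio was 0.895 and 0.942 without mannose, 0.997 and 1.13 with 5% and 1.02 to 1.09 with 20%, so the mannose libraries there lay above those without. The ratio shows unequal change of the pair and is given as a description. Exon overlap with genes on the opposite strand is 2.9% of bases for Rpn1 and 5.5% for Rpn2.

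**Figure D2:**
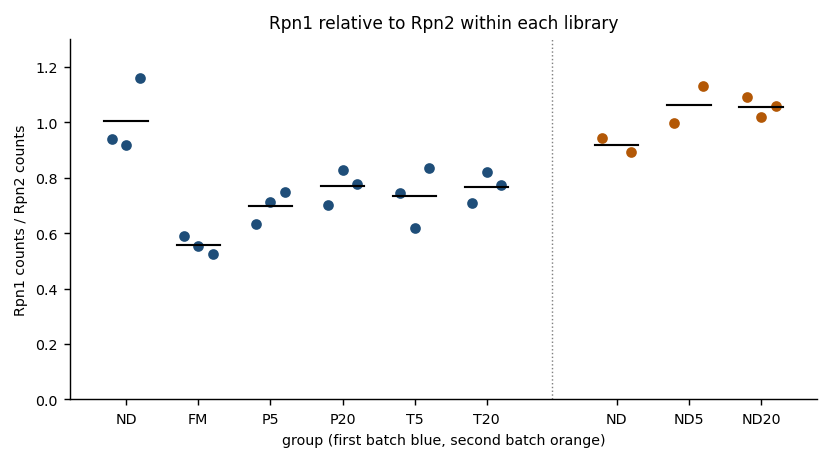
Rpn1 counts divided by Rpn2 counts in each library (points) with group means (lines), for normal diet (ND), FAT-MASH (FM), 5% and 20% prevention (P5, P20), 5% and 20% therapy (T5, T20) and, in the second batch, normal diet without (ND) and with 5% or 20% mannose (ND5, ND20). FAT-MASH libraries sit at 0.526 to 0.591 and first-batch normal-diet libraries at 0.919 to 1.16.

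Ganab, which removes the inner glucoses (chromosome 19, 8875435 to 8894036, + strand, GRCm39), had 226, 240.0 and 251 CPM on normal diet and 186, 162 and 165 CPM on the regimen. Its noncatalytic partner Prkcsh had 133, 135 and 135 CPM on normal diet and 91.6, 102 and 90.0 CPM on the regimen. Neither gene's groups overlapped, and the log2 fold changes were -0.48 ± 0.10 for Ganab (adjusted p = 0.00189) and -0.51 ± 0.10 for Prkcsh (adjusted p = 0.00136). Mogs, which removes the outermost glucose, was at 46.8 to 53.1 CPM on normal diet and 42.1 to 51.4 CPM on the regimen, which overlap. Man1a2, a Golgi mannosidase, had 37.0, 36.6 and 28.0 CPM on normal diet and 38.9, 45.2 and 47.3 CPM on the regimen, a log2 fold change of 0.37 ± 0.12 (adjusted p = 0.0472). This call was lost without any of normal diet replicates 1, 2 and 3 (0.0623, 0.0670 and 0.262) or FAT-MASH replicates 2 and 3 (0.153 and 0.196), and also when only the groups compared were fitted (0.0840), when genes of low counts were kept (0.0697) or with RLE size factors (0.0554).

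**Figure D3:**
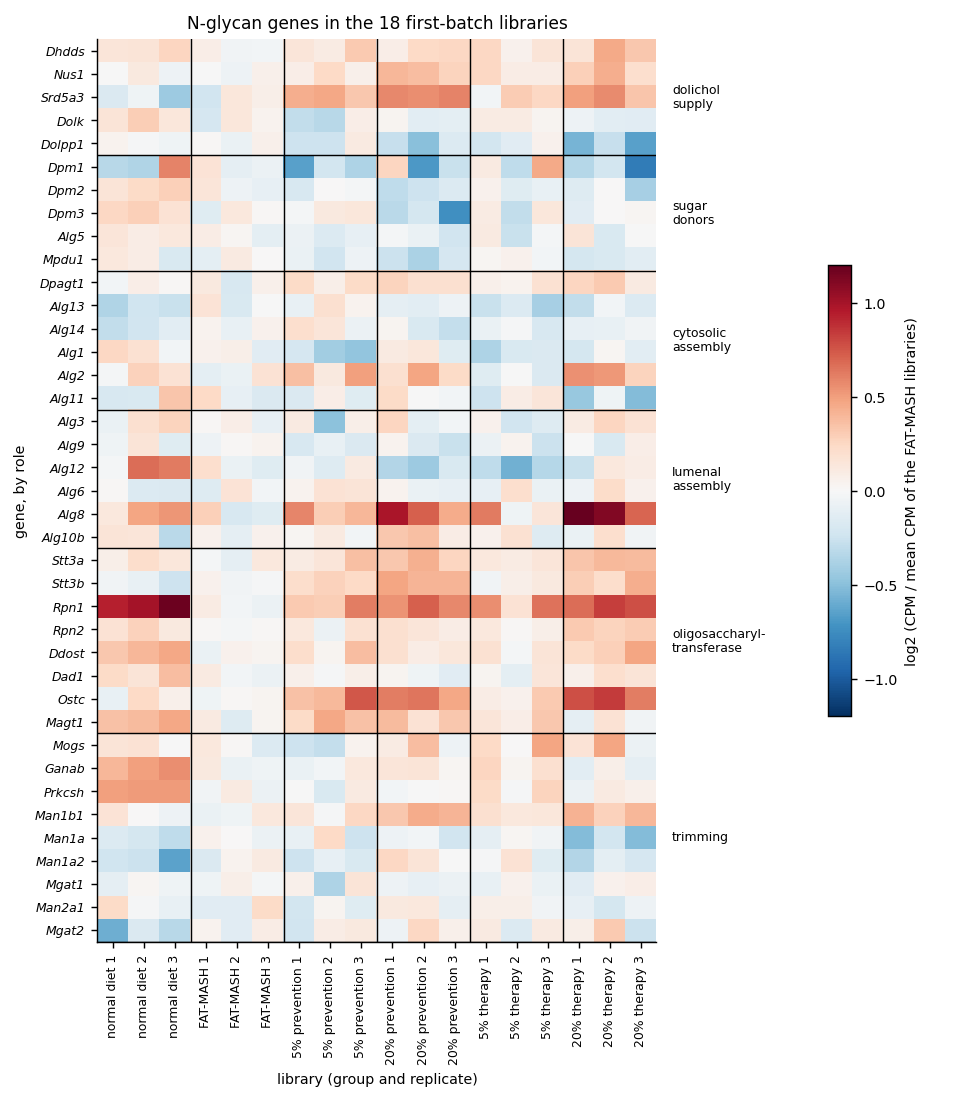
Log2 ratio of each gene's CPM to its mean in the FAT-MASH libraries, for 39 genes (lines, by role) in the 18 first-batch libraries (columns). The Rpn1, Ddost, Magt1, Ganab and Prkcsh lines are red in all 3 normal-diet libraries, and the Ostc, Alg8, Srd5a3 and Rpn1 lines are red in the 20% mannose libraries.

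With 20% mannose on the regimen, genes of several roles differed from FAT-MASH without mannose. Under 20% prevention 8 of the 39 genes rose (Rpn1, Ostc, Stt3b, Stt3a, Srd5a3, Nus1, Alg8 and Man1b1) and Dpm3 fell. Under 20% therapy those 8 rose as well, with Rpn2, Ddost, Dhdds and Alg2, while Dolpp1 and Man1a fell. The called share was 23.1% of the list under 20% prevention, where 15.1% of all genes tested were called (6.83% higher and 8.26% lower), and 35.9% under 20% therapy, where 21.4% were called (10.2% higher and 11.3% lower). The list's median log2 fold change was 0.07 under 20% prevention and 0.03 under 20% therapy, against 0.01 and 0 over all genes tested. Both comparisons use the same 3 FAT-MASH libraries, so their values are given side by side and the shared calls are no separate support for each other. The split depends on scaling: with library totals alone, which moved the median of all genes to 0.20 and 0.30, there were 16 higher and 0 lower under 20% prevention and 23 higher and 0 lower under 20% therapy. The share of all genes called with that scaling is not given here, so these counts cannot be read as particular to the list. With RLE size factors 20% prevention gave 8 higher and 0 lower.

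Among oligosaccharyltransferase genes, 4 of 8 rose under 20% prevention and 6 of 8 under 20% therapy, and none fell. Rpn1 had 140.0, 159 and 144 CPM under 20% prevention and 154, 172 and 165 CPM under 20% therapy, all above the FAT-MASH libraries and all below the first-batch normal-diet libraries. Its log2 fold changes were 0.61 ± 0.12 (adjusted p = 0.00170) and 0.76 ± 0.12 (adjusted p = 0.000134). Ostc, a subunit that links the STT3A form to the translocon (chromosome 3, 130489561 to 130503093, - strand, GRCm39), had 61.6, 64.5 and 65.2 CPM in FAT-MASH, 97.6, 99.7 and 87.9 CPM under 20% prevention and 109, 114 and 97.6 CPM under 20% therapy. The lowest mannose library was above the highest FAT-MASH library by a wide margin and also above the normal-diet libraries (60.0, 75.2 and 66.7 CPM). Ostc rose by 0.58 ± 0.12 (adjusted p = 0.00192) and 0.74 ± 0.12 (adjusted p = 0.000107) on the log2 scale.

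The catalytic subunits rose together. Stt3b, which can glycosylate sites after translation, had 138, 129 and 132 CPM in FAT-MASH, 185, 176 and 176 CPM under 20% prevention and 163, 154 and 180.0 CPM under 20% therapy. Stt3a, which works beside the translocon, had 98.7, 92.7 and 109 CPM, then 125, 135 and 120.0 CPM, then 126, 131 and 130.0 CPM. For both genes every 20% library exceeded every FAT-MASH library. The log2 fold changes were 0.43 ± 0.09 (adjusted p = 0.00205) and 0.32 ± 0.09 (0.0121) for Stt3b and 0.34 ± 0.09 (0.0135) and 0.37 ± 0.09 (0.00592) for Stt3a, prevention first. The Stt3b call under 20% therapy was lost without 20% therapy replicate 3 (0.0729) and with no filter on low counts (0.0576). The Stt3a call under 20% prevention was lost without FAT-MASH replicate 1 (0.0508), FAT-MASH replicate 2 (0.0785) or 20% prevention replicate 2 (0.0781).

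Ddost reached 119, 124 and 141 CPM under 20% therapy, above every FAT-MASH library and overlapping the normal-diet libraries, and rose by 0.33 ± 0.10 on the log2 scale (adjusted p = 0.0190). This call was lost without FAT-MASH replicate 1 (0.0848) or 20% therapy replicate 3 (0.103). Under 20% prevention Ddost was at 116, 108 and 112 CPM, which did not overlap FAT-MASH but did not pass the test (0.14 ± 0.10). Rpn2 had 216, 209 and 214 CPM under 20% therapy and rose by 0.30 ± 0.08 (adjusted p = 0.0158), a call lost without FAT-MASH replicate 2 (0.0507) or 20% therapy replicate 1 (0.0541) and with no filter on low counts (0.0825). Magt1 had 120.0, 104 and 115 CPM under 20% prevention and 85.1, 104 and 89.6 CPM under 20% therapy, the latter overlapping FAT-MASH, and passed in neither in edgeR (adjusted p = 0.0604 under 20% prevention, where DESeq2 gave 0.0318). Dad1, a small subunit of every form, was at 71.4 to 80.3 CPM and 81.8 to 90.3 CPM against 74.4 to 84.2 CPM in FAT-MASH and did not pass either.

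Summed over the 8 subunits, oligosaccharyltransferase RNA was 1040 ± 29.7 CPM on normal diet, 839 ± 21.1 in FAT-MASH, 992 ± 66.8 in 5% prevention, 1040 ± 26.7 in 20% prevention, 928 ± 58.7 in 5% therapy and 1090 ± 27.6 in 20% therapy (SD, n = 3 each). The FAT-MASH libraries (815 to 856 CPM) were the lowest of the first batch, and 5% therapy replicate 2 (866 CPM) was the nearest to them. With library totals alone the sum was 910.0 to 947 CPM on normal diet, 764 to 800.0 in FAT-MASH, 1080 to 1150 in 20% prevention and 1220 to 1280 in 20% therapy, so the standing of the 20% groups against normal diet depends on scaling. With TMM scaling the sum over the 9 trimming genes moved less, with 1120 ± 28.5 CPM on normal diet, 1070 ± 14.8 in FAT-MASH and 990 ± 61.2 in 20% therapy. With library totals alone the trimming sum was 960 to 1030 CPM on normal diet, 991 to 1020 in FAT-MASH and 1120 to 1170 in 20% therapy. Its direction under 20% therapy thus turned with scaling.

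**Figure D4:**
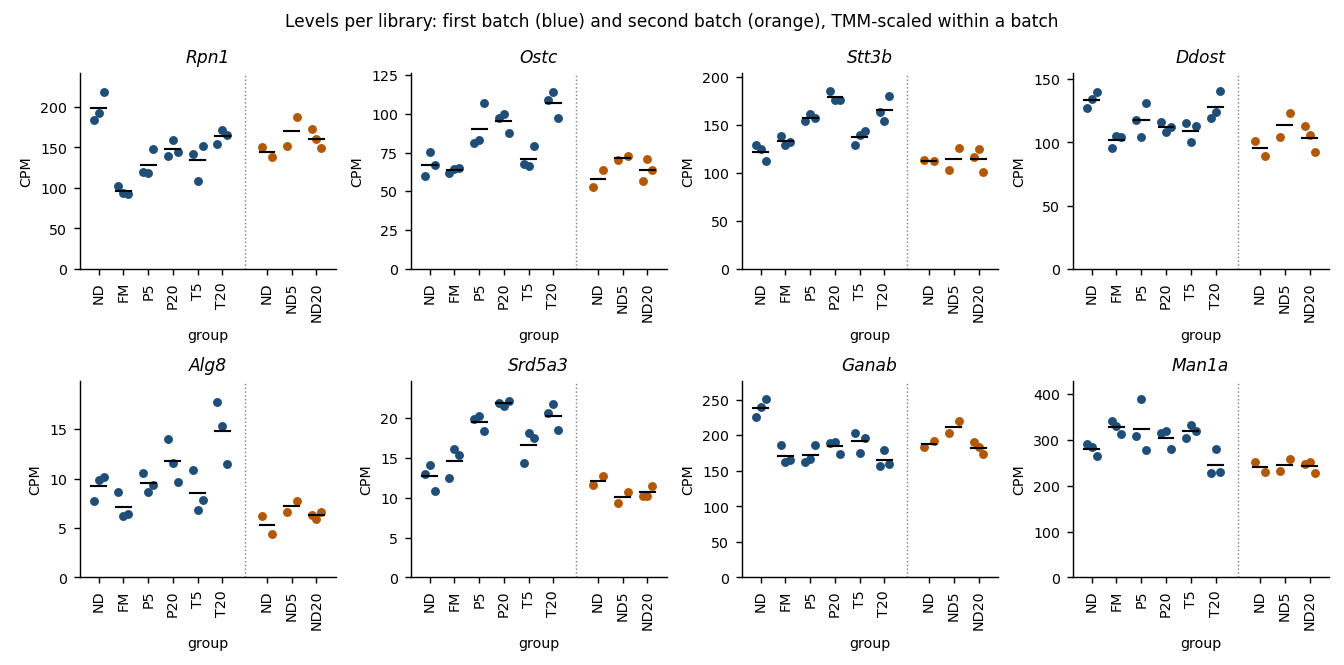
CPM of 8 genes in every library (points) with group means (lines): first batch in blue (ND normal diet, FM FAT-MASH, P5 and P20 prevention, T5 and T20 therapy), second batch in orange (ND, and ND5 and ND20 with mannose), each scaled within its batch. Ostc lies at 87.9 to 114 CPM in the 20% groups on the regimen and at 61.6 to 65.2 in FAT-MASH. Ganab in those 20% groups stays within 157 to 190.0 CPM, below its first-batch normal-diet libraries.

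Dolichol supply rose in part. Srd5a3, an enzyme of the step from polyprenol to dolichol (chromosome 5, 76288118 to 76303351, + strand, GRCm39), had 12.5, 16.2 and 15.4 CPM in FAT-MASH, 21.9, 21.6 and 22.2 CPM under 20% prevention and 20.7, 21.8 and 18.5 CPM under 20% therapy. All 20% libraries were also above the normal-diet libraries (10.9 to 14.2 CPM). The log2 fold changes were 0.58 ± 0.13 (adjusted p = 0.00446) and 0.47 ± 0.13 (0.0121), the latter lost without FAT-MASH replicate 1 (0.0799) or 20% therapy replicate 2 (0.0504). Nus1, the noncatalytic subunit of cis-prenyltransferase, had 62.3, 59.8 and 65.4 CPM in FAT-MASH, 82.2, 80.7 and 75.4 CPM under 20% prevention and 76.3, 84.3 and 71.9 CPM under 20% therapy, with no overlap. It rose by 0.35 ± 0.09 (adjusted p = 0.0132) and 0.31 ± 0.09 (0.0188). The first call was lost without FAT-MASH replicate 2 (0.0667), 20% prevention replicate 1 (0.0572) or 20% prevention replicate 2 (0.0509), and the latter without FAT-MASH replicate 1 (0.0540), FAT-MASH replicate 2 (0.0770) or 20% therapy replicate 2 (0.0973) and with no filter on low counts (0.0738).

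Dhdds, the catalytic partner of Nus1, had 30.6, 28.2 and 28.3 CPM in FAT-MASH and 32.3, 39.9 and 36.3 CPM under 20% therapy, without overlap. It rose by 0.32 ± 0.10 (adjusted p = 0.0287), a call lost without FAT-MASH replicate 2 (0.0869), FAT-MASH replicate 3 (0.0793), 20% therapy replicate 2 (0.135) or 20% therapy replicate 3 (0.0674) and with no filter on low counts (0.109). Under 20% prevention it had 30.7, 34.3 and 34.5 CPM and did not pass. Dolpp1, the phosphatase that recycles dolichyl pyrophosphate, went the other way, with 23.8, 22.3 and 24.6 CPM in FAT-MASH and 16.0, 19.4 and 15.0 CPM under 20% therapy. It fell by 0.49 ± 0.13 on the log2 scale (adjusted p = 0.00935), a call lost without 20% therapy replicate 3 (0.0577) and with library totals alone (0.275). Dolk, the dolichol kinase, did not pass in any of the 5 first-batch comparisons against FAT-MASH or normal diet.

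In lipid-linked assembly, 1 of 12 genes rose under 20% prevention and 2 of 12 under 20% therapy. Of all genes tested, 6.83% and 10.2% were called higher, so these counts cannot be read as particular to assembly. Alg8, which adds the middle glucose (chromosome 7, 97020813 to 97041392, + strand, GRCm39), had the steepest rise of the list under 20% therapy, from 8.63, 6.20 and 6.40 CPM in FAT-MASH to 17.7, 15.3 and 11.5 CPM. Under 20% prevention it had 14.0, 11.6 and 9.66 CPM. No 20% library overlapped FAT-MASH, and the log2 fold changes were 1.06 ± 0.21 (adjusted p = 0.000869) under therapy and 0.73 ± 0.21 (0.0204) under prevention. The prevention call was lost without FAT-MASH replicate 2 (0.0925), FAT-MASH replicate 3 (0.0784), 20% prevention replicate 1 (0.104) or 20% prevention replicate 2 (0.0538). Its neighbours in the pathway, Alg6 and Alg10b, which add the inner and outer glucose, were not called, and the Alg8 to Alg6 count ratio was 0.469 to 0.811 in FAT-MASH, 0.882 to 1.15 under 20% prevention and 0.944 to 1.57 under 20% therapy.

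Alg2, the mannosyltransferase that makes the branch point, had 18.8, 19.3 and 23.0 CPM in FAT-MASH and 29.8, 29.3 and 24.5 CPM under 20% therapy, without overlap. It rose by 0.45 ± 0.13 (adjusted p = 0.0157), a call lost without FAT-MASH replicate 1 (0.0753), FAT-MASH replicate 2 (0.0618), 20% therapy replicate 1 (0.0726) or 20% therapy replicate 2 (0.0527). Dpm3, the small anchor of dolichol-phosphate mannose synthase, had 21.6, 26.1 and 24.2 CPM in FAT-MASH and 19.1, 20.7 and 14.4 CPM under 20% prevention. It fell by 0.41 ± 0.14 (adjusted p = 0.0470), with no overlap between the groups. The call was lost without FAT-MASH replicate 2 (0.189), FAT-MASH replicate 3 (0.105), 20% prevention replicate 1 (0.0751) or 20% prevention replicate 3 (0.238). The Dpm3 call was lost also with library totals alone (0.190), only the groups compared (0.0984), the replicate number as a block (0.0652), genes of low counts kept (0.0614) or RLE size factors (0.0513). Mpdu1, which both donors need, had 60.1, 69.9 and 65.0 CPM in FAT-MASH, 54.4, 49.8 and 56.4 CPM under 20% prevention and 56.2, 57.1 and 59.4 CPM under 20% therapy, lower without overlap in both. It did not pass in edgeR (-0.28 ± 0.10, adjusted p = 0.0527, and -0.18 ± 0.10, 0.215), though under 20% prevention it passed in DESeq2 (0.0428) and without FAT-MASH replicate 1 (0.0485). Dpm1, Dpm2 and Alg5, which makes dolichol-phosphate glucose, did not pass.

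All 5 donor genes had negative log2 fold changes under 20% prevention (median -0.24) and 20% therapy (median -0.18). Their summed level with TMM scaling was 147 to 158 CPM in FAT-MASH, 125 to 133 CPM under 20% prevention and 139 to 141 CPM under 20% therapy. With library totals alone, a scaling added after seeing the data, the sums were 139 to 148 CPM, 132 to 142 CPM and 154 to 170.0 CPM, so the direction under 20% therapy turned and the groups overlapped under 20% prevention. The sums were not tested.

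In trimming, Man1b1, the mannosidase of the early secretory pathway that also marks misfolded glycoproteins, had 41.9, 42.8 and 48.3 CPM in FAT-MASH, 55.6, 60.5 and 59.0 CPM under 20% prevention and 59.2, 53.7 and 58.4 CPM under 20% therapy. All 20% libraries exceeded FAT-MASH, and Man1b1 rose by 0.40 ± 0.09 (adjusted p = 0.00688) and 0.37 ± 0.09 (0.00828). Man1a, a Golgi mannosidase, had 341, 330.0 and 313 CPM in FAT-MASH and 228, 281 and 229 CPM under 20% therapy, which is lower in all 3. It fell by 0.42 ± 0.12 (adjusted p = 0.0135), a call lost without FAT-MASH replicate 1 (0.0519), FAT-MASH replicate 2 (0.0501), 20% therapy replicate 1 (0.0704) or 20% therapy replicate 3 (0.0783) and with library totals alone (0.452). Ganab and Prkcsh, which were low on the regimen, had 157 to 190.0 CPM and 90.0 to 102 CPM in the 20% groups and passed in neither direction. Mgat1, Man2a1 and Mgat2, which begin the branching of complex glycans in the Golgi, did not pass in these comparisons.

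**Figure D5:**
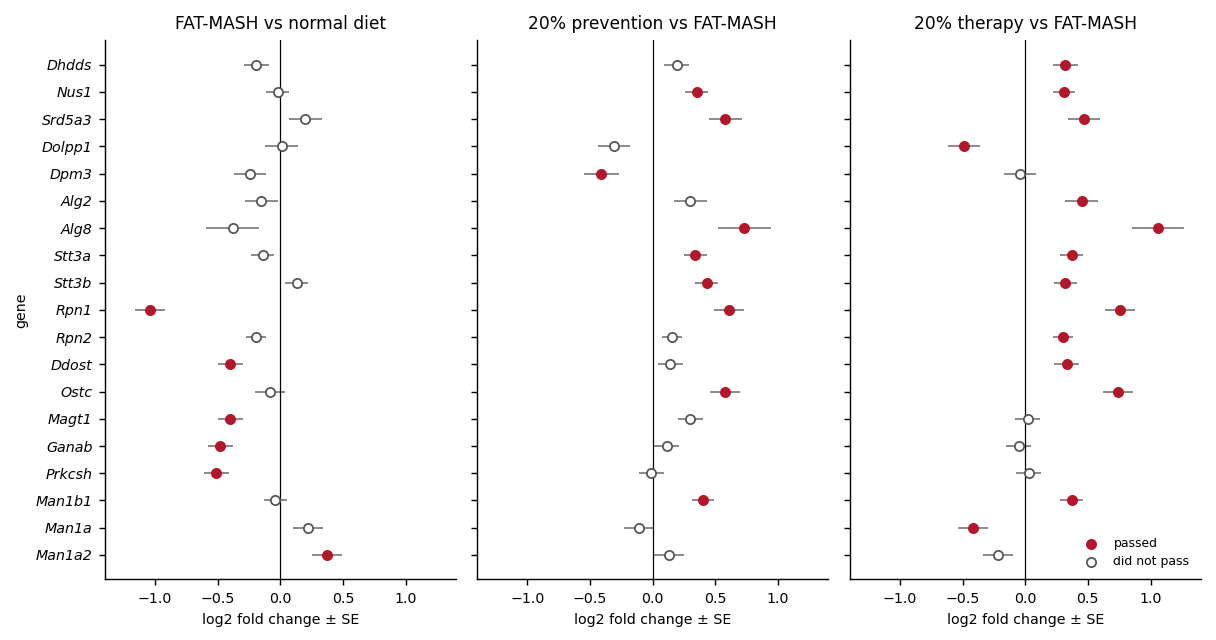
Log2 fold changes ± SE of the 19 genes called in at least 1 of 3 comparisons: FAT-MASH against normal diet, 20% prevention against FAT-MASH and 20% therapy against FAT-MASH (filled points passed the test, open points did not). Rpn1 lies at -1.04, 0.61 and 0.76, and Ganab at -0.48 with values near 0 in both mannose comparisons, which share the FAT-MASH libraries.

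Other RNA moved in the same libraries. Under 20% therapy 7 of 8 hepatocyte markers were lower (summed 62600 to 70200 CPM against 91000 to 103000 in FAT-MASH), 14 of 14 cell cycle genes were higher (193 to 521 CPM against 35.2 to 45.3) and 5 of 6 cholangiocyte markers were higher (166 to 752 CPM against 98.1 to 119). Under 20% prevention 4 of 8 hepatocyte markers were lower (76400 to 94300 CPM), 13 of 14 cell cycle genes were higher (142 to 149 CPM) and 4 of 6 cholangiocyte markers were higher (206 to 531 CPM). Among those cholangiocyte markers Cftr had 0 counts in 1 first-batch library, and the others were detected in all 18. The part of these shifts in the values of the glycan genes was not tested. On the regimen alone, 6 of 6 macrophage markers (summed 422 to 739 CPM against 174 to 219) and 5 of 6 stellate cell markers (403 to 484 CPM against 257 to 290) were higher and 2 of 8 hepatocyte markers lower than on normal diet.

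At 5% mannose few genes passed. Under 5% prevention 1 gene rose in edgeR, Ostc, with 81.1, 83.4 and 107 CPM against 61.6 to 65.2 CPM in FAT-MASH and no overlap, a log2 fold change of 0.50 ± 0.12 (adjusted p = 0.0264). That is 1 of 39 genes, where 2.27% of all genes tested were called (0.966% higher and 1.31% lower), and the list's median log2 fold change was 0.04. The Ostc call was lost without FAT-MASH replicate 1 (0.108), FAT-MASH replicate 2 (0.0750), FAT-MASH replicate 3 (0.0644) or 5% prevention replicate 3 (0.118) and with only the groups compared (0.0563). Rpn1 had 120.0, 118 and 148 CPM (0.41 ± 0.12, adjusted p = 0.0791) and Srd5a3 19.9, 20.3 and 18.4 CPM (0.41 ± 0.13, 0.104). Both lay above every FAT-MASH library without passing in edgeR. DESeq2 called 4 genes, adding Rpn1 (0.0257), Magt1 (0.0289) and Srd5a3 (0.045) to Ostc. With library totals alone 5 were called, and with no filter on low counts Rpn1 was called besides Ostc (0.0248).

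Under 5% therapy, 0 of 39 genes passed in edgeR, where 0.0358% of all genes tested were called (0.0255% higher and 0.0102% lower). At an unadjusted p under 0.05 there were 2, Rpn1 and Alg12, and DESeq2 called 1, Rpn1. The share of all genes at an unadjusted p under 0.05 is not given, here or below. Such counts therefore cannot be read as particular to the list. Rpn1 had 142, 109 and 152 CPM, above FAT-MASH in all 3 libraries (0.47 ± 0.12, adjusted p = 0.250; 0.0110 with no filter on low counts and 0.0378 in DESeq2). Ostc was at 67.8, 66.1 and 79.3 CPM, above the FAT-MASH libraries by little in replicates 1 and 2 and overlapping normal diet (0.16 ± 0.11, adjusted p = 0.911).

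The doses were then compared directly. Within therapy, 4 genes were higher at 20% than at 5% (Ostc, Alg2, Alg8 and Stt3b) and 2 were lower (Dolpp1 and Man1a), which is 15.4% of the list against 17.7% of all genes tested (8.33% higher and 9.33% lower). With library totals alone, which moved the median of all genes to 0.29, 20 were higher and 0 lower. Here too the share of all genes with that scaling is not given. Ostc differed by 0.58 ± 0.11 (adjusted p = 0.00127), Alg2 by 0.56 ± 0.13 (0.00460) and Alg8 by 0.80 ± 0.21 (0.00948) on the log2 scale. The Alg8 call was lost without 5% therapy replicate 2 (0.0508) or 20% therapy replicate 1 (0.0651). Stt3b (0.27 ± 0.09, adjusted p = 0.0381), Dolpp1 (-0.40 ± 0.13, 0.0386) and Man1a (-0.38 ± 0.12, 0.0289) passed less firmly. Each was lost without 5% therapy replicate 2 (0.0684, 0.0548 and 0.0811, in that order), 5% therapy replicate 3 (0.0613, 0.166 and 0.0758), 20% therapy replicate 1 (0.0829, 0.139 and 0.129) or 20% therapy replicate 3 (0.199, 0.158 and 0.126). Stt3b and Man1a were lost also without 5% therapy replicate 1 (0.155 and 0.0521), all 3 with only the groups compared (0.119, 0.0894 and 0.0514), and Stt3b and Dolpp1 with no filter (0.172 and 0.0719). With the replicate number as a block, Stt3b and Dolpp1 were lost too (0.0568 and 0.0506). Library totals alone ended the Dolpp1 and Man1a calls (0.509 and 0.506).

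Within prevention, 0 of 39 genes differed between 20% and 5% in edgeR, where 0.445% of all genes tested were called. There were 7 at an unadjusted p under 0.05, and DESeq2 called 1, Dpm3, which had 19.1, 20.7 and 14.4 CPM at 20% and 23.6, 26.0 and 26.3 CPM at 5% (-0.49 ± 0.14, adjusted p = 0.0934 in edgeR). For timing, 0 of 39 genes differed between 5% therapy and 5% prevention in edgeR (0.194% of all genes tested were called, 6 of the 39 had an unadjusted p under 0.05, and DESeq2 called 0). Between 20% therapy and 20% prevention the count in edgeR was also 0 (0.0818% of all genes tested were called, 0.0255% higher and 0.0562% lower, 5 of the 39 were at an unadjusted p under 0.05, and DESeq2 called 0).

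On normal diet, 0 of 39 genes passed in edgeR with 5% mannose, where 0% of the 18462 genes tested were called, and 0 of 39 with 20%, where 0.00542% were called. At an unadjusted p under 0.05 there were 9 with 5% mannose, 8 of them higher, and 4 with 20%, all higher, while DESeq2 called 0 in both. Without the share of all genes at that unadjusted threshold, these counts cannot be read as particular to the list. The list's median log2 fold change was 0.15 with 5% and 0.12 with 20%, against -0.01 and 0 over all genes tested, and with 2 or 3 libraries a group these shifts did not give a call. Rpn1 had 151 and 138 CPM without mannose, 152 and 188 CPM with 5% and 173, 160.0 and 149 CPM with 20%. Ostc had 52.7 and 63.5 CPM, then 70.4 and 72.6 CPM, then 56.9, 70.7 and 63.6 CPM. Both genes overlapped between the 20% and the untreated libraries. Alg12, the lumenal mannosyltransferase, had 5.33 and 8.37 CPM without mannose, 10.7 and 16.1 CPM with 5% and 10.3, 14.2 and 9.30 CPM with 20%. Its libraries did not overlap, with log2 fold changes of 0.97 ± 0.29 (adjusted p = 0.840; 0.0081 with no filter on low counts) and 0.72 ± 0.27 (adjusted p = 0.808).

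The effect of 20% mannose over 12 weeks was compared between the diets in a fit of all 25 libraries with a batch term. Since the mannose groups of each diet lie in different batches, the batch is separated from diet only through the 5 normal-diet libraries without mannose. Of the 39 genes 1 passed, Srd5a3, where 5.67% of the 21373 genes tested were called (2.26% higher and 3.41% lower). Srd5a3 had 11.6 and 12.7 CPM on normal diet and 10.3, 10.3 and 11.5 CPM with 20% mannose in the second batch, whereas every 20% prevention library exceeded every FAT-MASH library in the first. The difference of effects was 0.77 ± 0.19 on the log2 scale (adjusted p = 0.0196), and the call was lost without FAT-MASH replicate 1 (0.0521) or normal diet replicate 5 (0.0613) and with no filter on low counts (0.0528). At an unadjusted p under 0.05 there were 8 genes, and DESeq2 called 3, Srd5a3, Alg12 and Stt3b. Alg12 differed the other way in edgeR without passing (-1.04 ± 0.32, adjusted p = 0.0524). For Rpn1 (0.46 ± 0.18, adjusted p = 0.137) and Ostc (0.44 ± 0.17, 0.144) a difference between diets was not shown.

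In the main edgeR fits, 20 genes of the list passed in none of the 7 comparisons of FAT-MASH with normal diet and of mannose with its untreated group: Dolk, Dpm1, Dpm2, Alg5, Mpdu1, Dpagt1, Alg13, Alg14, Alg1, Alg11, Alg3, Alg9, Alg12, Alg6, Alg10b, Dad1, Mogs, Mgat1, Man2a1 and Mgat2. DESeq2 called 2 of these, Dad1 as lower in FAT-MASH than on normal diet (0.0409) and Mpdu1 as above. The 20 include 4 of the 5 donor genes and 10 of the 12 assembly genes. Dpagt1, which commits the pathway by adding the innermost N-acetylglucosamine, varied between -0.02 and 0.23 in log2 fold change over the 5 first-batch comparisons. With library totals alone edgeR called it under 20% prevention (0.00565) and 20% therapy (0.000317). That scaling also called Alg10b under 20% prevention, Alg5, Alg3, Alg6, Dad1, Mogs, Mgat1 and Mgat2 under 20% therapy, and Mgat2 on the regimen. Alg12 passed on the regimen without normal diet replicate 1 (0.0142). In the main fits, over the same 5 first-batch comparisons, Dpm1 ranged from -0.45 to 0.12, Alg13 from -0.27 to 0.28 and Alg12 from -0.45 to -0.01.

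Genes that work next to the list were described by the same test. For the counts here and in the next paragraphs, 13.7% of all genes tested were called on the regimen, 15.1% under 20% prevention and 21.4% under 20% therapy. Whether any of these lists differs from that share was not tested. Of 5 other assembly and transfer genes tested, Krtcap2, a small oligosaccharyltransferase subunit, fell on the regimen (log2 fold change -0.46 ± 0.10, adjusted p = 0.00294). Under 20% therapy 3 of the 5 rose and 1 fell, and those that rose were Krtcap2 (0.34 ± 0.10, 0.0156), Ost4 (0.53 ± 0.12, 0.00420), another small subunit, and Mlec (0.62 ± 0.12, 0.000657), a lectin that associates with ribophorin. Under 20% prevention Mlec rose (0.73 ± 0.12, 0.000347).

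In nucleotide sugar supply, 3 of 11 genes fell and 2 rose on the regimen, with a median log2 fold change of -0.15. Mpi, which connects mannose phosphate with glycolysis, fell by 0.62 ± 0.15 on the log2 scale (adjusted p = 0.00896), Pmm1, a phosphomannomutase, fell by 2.42 ± 0.44 (0.000957), and Pgm3, an enzyme of UDP-N-acetylglucosamine synthesis, rose by 1.03 ± 0.17 (0.000375). Under 20% therapy 5 rose and 1 fell (median 0.30), and under 20% prevention 2 rose and 1 fell (median 0.28). Gfpt1, the rate-limiting enzyme of hexosamine synthesis, rose by 0.80 ± 0.14 under 20% prevention (adjusted p = 0.000565) and 0.89 ± 0.14 under 20% therapy (8.57e-05), and Mpi rose by 0.59 ± 0.15 (0.0107) and 0.61 ± 0.15 (0.00614). Pmm2, the other phosphomannomutase, fell by 0.32 ± 0.10 in both (0.0276 and 0.0204).

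Among 15 genes of glycoprotein folding and disposal, 7 fell and 0 rose on the regimen (median -0.28). They include Calr, the soluble lectin chaperone (-0.94 ± 0.11, adjusted p = 9.98e-06), Pdia3, its disulfide isomerase partner (-0.66 ± 0.10, 0.000214), and Uggt1, which puts glucose back on unfolded glycoproteins (-0.44 ± 0.10, 0.00563). Under 20% prevention 3 rose and 1 fell (median 0.12), and under 20% therapy 2 rose and 2 fell (median 0.02), with Uggt1 higher in both (0.56 ± 0.10, 0.000780, and 0.30 ± 0.10, 0.0350). Of 16 unfolded protein response genes, 9 fell and 1 rose on the regimen (median -0.53), led by Sdf2l1, a chaperone cofactor (-1.61 ± 0.17, 2.37e-06). In this list 6 rose and 1 fell under 20% prevention (median 0.45), and 4 rose and 1 fell under 20% therapy (median 0.34). Atf6, a stress sensor and transcription factor, rose by 0.71 ± 0.11 (0.000220) and 0.39 ± 0.11 (0.0141). Herpud1, a degradation component, moved against the other called genes of this list. It rose by 1.05 ± 0.27 on the regimen (0.0113) and fell by 1.02 ± 0.27 (0.0126) and 1.60 ± 0.27 (0.000225) with 20% mannose. Among 16 Golgi genes for branching and capping, 3 rose and 1 fell on the regimen (median 0.09), 3 rose and 0 fell under 20% prevention (median 0.20), and 3 rose and 1 fell under 20% therapy (median 0.13). Slc35c1, the GDP-fucose transporter, rose by 0.46 ± 0.14 (0.0288) and 0.71 ± 0.14 (0.000943) with 20% mannose.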

How the data were processed

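Poly-A RNA of mouse liver was sequenced in 25 libraries. Alignment by the authors used STAR and GRCm39, and gene counting used featureCounts 2.0.6, per the submitters' processing notes. A different version, featureCounts 2.0.1, and the annotation GENCODE M31 stand in the table, per the file headers. The deposited values are whole-number counts per gene, not normalized by the authors. The counting command names no strand, read-pair or multiple-alignment option, per the file headers. Strand thus did not separate reads of a gene from those of one overlapping it. Counts over shared exon bases may be incomplete or mixed.

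The genes and lists were chosen with earlier results of these data known. The counts were tested by edgeR 4.0.16 under R 4.3.3 (glmQLFit and glmQLFTest, TMM scaling, filterByExpr, Benjamini-Hochberg adjustment over all genes tested, threshold 0.05, no minimum fold) in 3 fits: the 18 first-batch libraries (19571 genes), the 7 second-batch libraries (18462 genes) and all 25 with a batch term (21373 genes). Standard errors are the size of the log2 fold change divided by the square root of the F statistic. A check on simulated counts was also run. Its results are not given here, so nothing about the tests in the 3 fits is concluded from it. For the 19 genes called in at least 1 of 7 comparisons, values were given in each library of the groups compared in those calls. Values in the other groups were given for only some of them, and partner subunits were added where useful. From each other list at most 4 genes with the smallest adjusted p in a comparison were named, with their values in the others beside it. Alternatives were RLE size factors, library totals alone as scaling, no filter on low counts, DESeq2 1.42.0, only the groups compared, the replicate number as a block, and leaving out each library in turn. Sums by role with library totals alone were added after seeing the data. For 1 gene of the other lists the result is not reported here.

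Symbols were looked up by gene ID: 52073 of 56980 genes matched, 4907 did not, and 135 share a symbol. For Ddit3, which has 2 entries, the one with more counts was used. Whether mice of a group shared a cage or litter is unknown here, so p-values measure the spread between these libraries. Replicates differed by more than sampling noise, with a chi-square over its degrees of freedom of at least 19.3. Gene coordinates are those of the count table (GRCm39), and promoter sequences are RefSeq's (GRCm38.p6).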

Additional observations from a re-analysis of the deposited data

Results flagged for a closer look

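In the 5 normal-diet libraries without mannose, scaled together over both batches, 3 of the 39 genes had 1 library far from the other 4, and in each it was first-batch replicate 3. Dpm1 was highest there at 8.34 CPM, with the others at 3.85 to 4.85 CPM. Mpdu1 was lowest there at 55.1 CPM, with the others at 65.0 to 67.9 CPM, and Alg11 was highest at 42.3 CPM, with the others at 29.3 to 32.6 CPM. Chance alone marks about 1 in 20 such sets, and none of the 3 genes was called in a comparison in the main edgeR fits. Under 20% prevention against FAT-MASH, Mpdu1 passed in DESeq2 (0.0428) and in edgeR without FAT-MASH replicate 1 (0.0485). The effect of 20% mannose on Srd5a3 differed between the FAT-MASH regimen and normal diet by 0.77 on the log2 scale, by the test of the difference itself.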

How the results depend on the processing

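Of 37 calls, 15 held under all alternatives run and 0 changed direction. Counts of called genes of the list moved by over 1.5 times as follows. The share of all genes called under each alternative is not given beside them, so they describe dependence on processing only. With library totals alone they were 5 for 5% prevention, 16 for 20% prevention, 23 for 20% therapy, 20 for 20% against 5% therapy and 7 for the difference between diets. With no filter on low counts they were 2 for 5% prevention and 1 each for 5% therapy, 5% therapy against 5% prevention and 5% mannose on normal diet. DESeq2 gave 4 for 5% prevention, 1 each for 5% therapy and 20% against 5% prevention, and 3 for the difference between diets. With only the groups compared they were 0 for 5% prevention and 3 for 20% against 5% therapy. Leaving out each library in turn gave 4 to 6 called genes for FAT-MASH against normal diet, 0 to 1 for 5% prevention, 5 to 9 for 20% prevention (5 without FAT-MASH replicate 2) and 9 to 13 for 20% therapy (9 without FAT-MASH replicate 1, FAT-MASH replicate 2 or 20% therapy replicate 3). It gave 2 to 6 for 20% against 5% therapy (2 without 5% therapy replicate 2 or 20% therapy replicate 1) and 0 to 2 for the difference between diets (0 without FAT-MASH replicate 1). The other 6 comparisons stayed at 0 each. With 1 library left in a second-batch group, that library was assumed to vary like the other groups. Replicate numbers did not pair the libraries: same-numbered deviations correlated at -0.15 to 0.18, and 1 of 18 libraries correlated best with its own number. With the replicate number as a block, called genes numbered 6 for FAT-MASH against normal diet, 1 for 5% prevention, 8 for 20% prevention, 0 for 5% therapy, 14 for 20% therapy, 0 for 20% against 5% prevention and 4 for 20% against 5% therapy. The block was not run in the second batch or across batches, where normal diet shares no numbers with the mannose groups. Groups of 2 or 3 limit the power, and Dpm1, with 84 counts at its lowest, is the least precise gene.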
